A study of Homo sapiens with 12 samples.

Results

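The genes described here encode the cadherins, claudins and partner proteins that join epithelial cells, measured by RNAseq in SKBR-3 cells, an established HER2-amplified breast cancer line. They were taken from the tables by symbol and number 10 of the 20531 genes listed there: CDH1, CDH3, CLDN1, CLDN3, CLDN4, CLDN7, CLDN8, OCLN, TJP1 and EPCAM. The 12 samples fall into 4 groups of 3 replicates. All cells were transfected with a pool of siRNAs, either non-targeting (NT siRNA) or against FOXA1, a pioneer transcription factor of luminal epithelium. They were then given DMSO or 300 nM lapatinib, an inhibitor of the EGFR and HER2 kinases, for 24 h. Every sample is the same line carrying a siRNA pool, no untransfected sample is included, and nothing in the labels says whether the replicates are separate cultures, so the p-values measure only the spread between these samples.

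Adherens junctions are built from classical cadherins, whose outer parts bind the same cadherin on the next cell and whose tails hold the catenins that reach actin. Tight junctions seal the space between cells above them, with claudins as the strands that set permeability, occludin as a second membrane protein and ZO-1, the product of TJP1, as the scaffold underneath. EPCAM is a surface glycoprotein of epithelial cells that mediates weak adhesion and binds claudin-7. SKBR-3 is known as a line that lacks E-cadherin, the product of CDH1.

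The expected counts, which are reads assigned to genes by estimation, summed to between 25749578 and 32271850 per library. FOXA1 had 8444, 8307 and 8765 normalized counts in NT siRNA cells in DMSO and 1160, 1362 and 1563 in FOXA1 siRNA cells in DMSO, a log2 fold change of -2.63 ± 0.10 (SE, n = 3 each, edgeR, adjusted p = 4.55e-06), and its log2 fold change in lapatinib was -2.69 ± 0.12. Lapatinib itself raised FOXA1, with log2 fold changes of 0.60 ± 0.05 (adjusted p = 2.14e-05) in NT siRNA cells and 0.54 ± 0.15 (adjusted p = 0.0129) in FOXA1 siRNA cells. Normalized counts are counts divided by the scaled depth of the library, and values given in threes are replicates 1, 2 and 3 in order. The replicate 2 libraries stood apart in every group, with a chi-square per degree of freedom of 12.14 to 17.63 between replicate 2 and another replicate of its group against 3.62 to 5.68 between replicates 1 and 3. The line's defining genes were abundant, with ERBB2 at 2718 to 6105 TPM and KRT8 at 2932 to 4216 TPM, while PGR had at most 1 count in a library. Of markers of other cells, the 3 endothelial ones summed to 8.35 to 11.7 TPM in NT siRNA DMSO and 3.78 to 6.55 in NT siRNA lapatinib, nearly all of it CDH5, with PECAM1 at no more than 0.27 TPM. The 4 leukocyte markers summed to 15.6 to 25.8 and 28.5 to 39.0 TPM in these groups, nearly all of it CD68, with PTPRC at no more than 0.32 TPM, and 5 fibroblast markers, mostly COL1A1, summed to 5.03 to 5.81 and 3.11 to 4.02 TPM. The part of these sums in the results was not tested.

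The 10 genes ranged from no reads to among the abundant transcripts. On the TPM scale, which corrects for transcript length and so allows genes to be compared, CLDN4 was the highest in NT siRNA cells in DMSO at 423 ± 30.1 TPM (SD, n = 3), above 98.56% of all genes. EPCAM followed at 291 ± 10.1 TPM and CLDN7 at 265 ± 20.2 TPM, and the ranges of these 2 genes overlapped. CLDN3 stood at 89.8 ± 24.4 TPM, OCLN at 56.7 ± 2.82 and TJP1 at 33.3 ± 0.514, with no overlap between neighbours in this order. A wide gap separated these 6 genes from the other members. CLDN1 was at 1.19 to 1.72 TPM, CLDN8 at 0.30 ± 0.121 and CDH1 at 0.0667 ± 0.0351, and CDH3 was at 0.

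**Figure D1:**
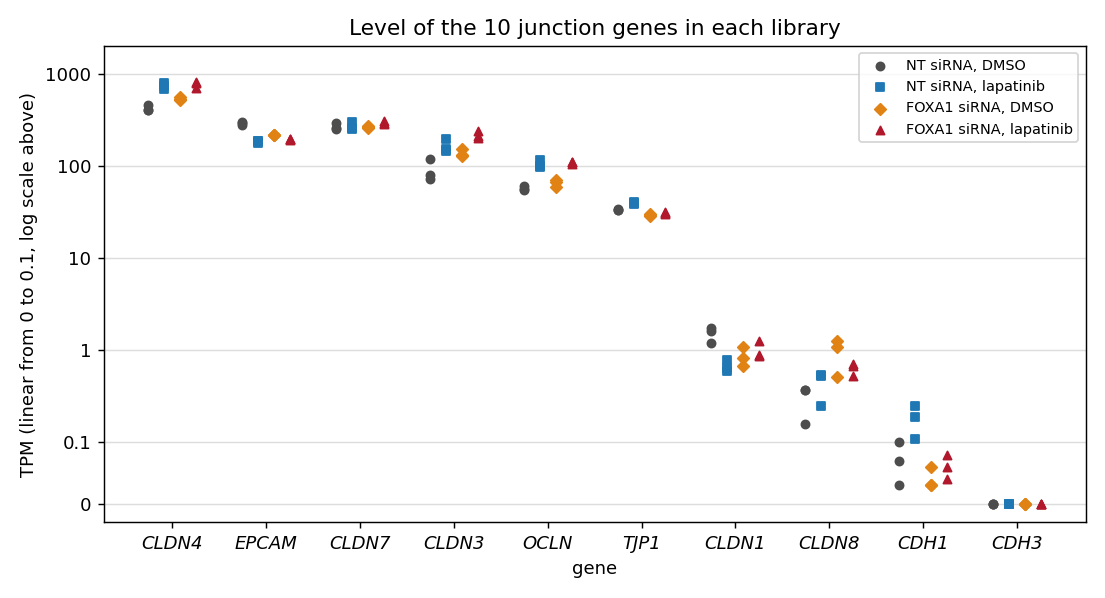
TPM of each gene (vertical axis, linear from 0 to 0.1 and logarithmic above) in each of the 12 libraries, coloured by siRNA and drug. CLDN4 is highest in all 4 groups, 6 genes lie at 28.7 TPM or more in every library, and CDH1 does not exceed 0.25 TPM.

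CLDN4 kept the first place and the low genes the low places in all 4 groups, but the order between them changed. EPCAM, second in NT siRNA DMSO, came after CLDN7 in NT siRNA lapatinib, at 183 ± 5.85 against 268 ± 25.8 TPM, where its range overlapped that of CLDN3 at 164 ± 27.2 TPM. In FOXA1 siRNA lapatinib CLDN3, at 218 ± 17.9 TPM, was above EPCAM, at 195 ± 3.51 TPM, without overlap. CLDN8 and CLDN1 overlapped in FOXA1 siRNA DMSO, at 0.95 ± 0.389 and 0.86 ± 0.207 TPM.

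CDH1, on chromosome 16 at 68737292 to 68835537 (GRCh38.p14), encodes E-cadherin, the main cadherin of epithelia, and was close to undetected. Its expected counts were 8, 5 and 2 in NT siRNA DMSO, 7, 19 and 14 in NT siRNA lapatinib, 2, 5 and 2 in FOXA1 siRNA DMSO and 6, 5 and 3 in FOXA1 siRNA lapatinib. In all, 4 libraries thus held no more than the 3 counts taken as the limit of detection, a limit that covers counting error only, and the highest of all 12 held 19 counts of 30628110. CDH3, which encodes P-cadherin of basal and myoepithelial cells, had 0 counts in all 12 libraries, which allows up to 0.093 CPM (counts scaled to the library total) in the deepest library and 0.117 CPM in the shallowest.

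The pair lies side by side, the end of CDH3 being 3521 bases before the start of CDH1, and 7 of the 8 other genes read around them had at least 67 counts in every library. Of the 5 nearest protein-coding genes on each side of CDH1, ZFP90 on the CDH3 side had 235 to 497 counts per library, and TANGO6 (TMCO7 in the files), the first gene on the other side, had 179 to 298. PRMT7, CHTF8 and UTP4 (CIRH1A in the files) had at least 743 counts in every library. HAS3, a hyaluronan synthase, was the other low gene, at 4 to 28 counts, and DERPC, which shares its span with CHTF8, was not analysed here.

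**Figure D2:**
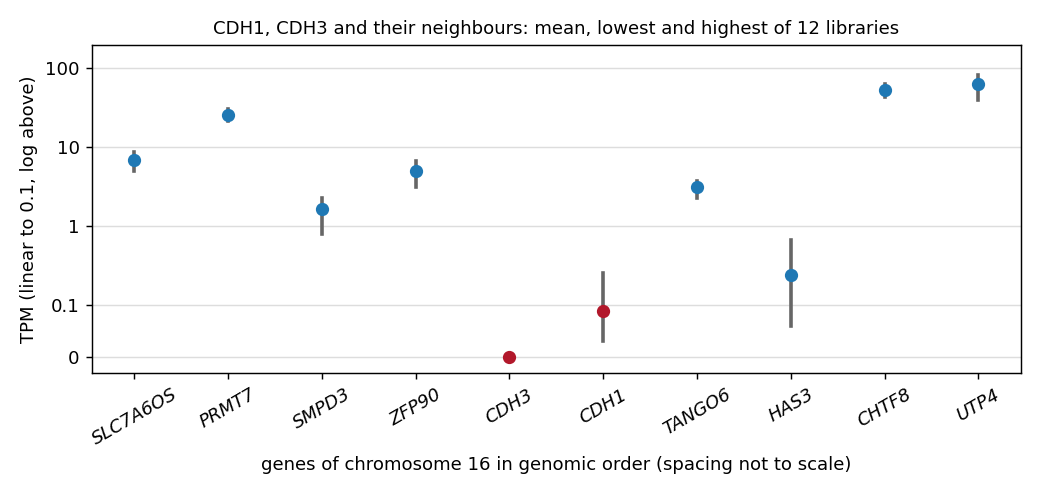
TPM (vertical axis, linear to 0.1 and logarithmic above) of CDH1, CDH3 and their neighbours in genomic order, with the mean of 12 libraries as a point and the lowest to highest library as a line. CDH3 is at 0 and CDH1 at 0.0875 TPM on average between ZFP90 at 4.95 and TANGO6 at 3.09.

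The catenins that bind cadherin tails were abundant in the same libraries. JUP, which encodes plakoglobin, was at 724 to 1388 TPM, CTNNA1 (alpha-catenin) at 547 to 876, CTNND1 (p120 catenin) at 141 to 229 and CTNNB1 (beta-catenin) at 61.4 to 175 TPM. Of 6 other cadherins, 4 stayed under 10 counts in every library. N-cadherin (CDH2) and CDH6 had at most 1 count in a library, CDH4 and CDH11 at most 4, and CDH13, a cadherin without a catenin-binding tail, 3 to 36. CDH5, the cadherin of endothelium, was the most abundant of these 6, at 186 to 731 counts or 3.23 to 11.8 TPM. Of 6 factors known to repress CDH1, SNAI2, ZEB1, ZEB2, TWIST1 and TWIST2 had at most 2 counts in a library, and SNAI1 had 27 to 234.

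For 6 of the 10 genes RefSeq promoter windows were at hand (CLDN1, CLDN3, CLDN4, CLDN7, OCLN and TJP1, with 11 start sites in all), and the 250 bases before each start were searched on both strands for 2 forkhead motifs, GTAAACA and GTCAACA, and for CACCTG, the E-box bound by SNAI1 and related factors. The windows of the 3 genes with the highest lapatinib fold changes among the abundant members (CLDN3, CLDN4 and OCLN) and of the claudin that fell (CLDN1) are shown, 5′ to 3′ on the strand of the gene (GRCh38.p14), with motif matches in capitals.
CLDN3, chr7:73770271-73770520, minus strand: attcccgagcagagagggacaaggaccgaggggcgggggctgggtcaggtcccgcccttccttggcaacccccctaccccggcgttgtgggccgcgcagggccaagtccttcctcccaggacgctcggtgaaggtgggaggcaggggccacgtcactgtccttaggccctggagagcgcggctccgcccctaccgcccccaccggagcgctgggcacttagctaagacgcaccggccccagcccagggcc
CLDN4, chr7:73830746-73830995, plus strand: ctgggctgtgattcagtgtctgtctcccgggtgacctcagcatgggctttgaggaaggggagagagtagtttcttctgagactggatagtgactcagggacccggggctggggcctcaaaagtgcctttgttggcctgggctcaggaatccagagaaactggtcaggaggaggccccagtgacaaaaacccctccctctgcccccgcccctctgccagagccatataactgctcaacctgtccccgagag
OCLN, chr5:69492297-69492546, plus strand: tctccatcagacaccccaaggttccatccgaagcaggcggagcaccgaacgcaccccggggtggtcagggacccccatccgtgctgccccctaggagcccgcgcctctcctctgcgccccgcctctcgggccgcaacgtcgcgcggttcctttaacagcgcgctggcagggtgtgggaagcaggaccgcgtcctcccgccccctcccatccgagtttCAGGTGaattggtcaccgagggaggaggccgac
CLDN1, chr3:190322447-190322696, minus strand: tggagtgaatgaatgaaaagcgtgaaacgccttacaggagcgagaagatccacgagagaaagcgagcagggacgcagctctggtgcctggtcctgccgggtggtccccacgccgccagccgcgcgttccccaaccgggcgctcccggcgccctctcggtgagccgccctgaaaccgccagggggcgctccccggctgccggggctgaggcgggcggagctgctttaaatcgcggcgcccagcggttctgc

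Neither forkhead motif occurred in any of the 11 windows. Of 35116 promoter windows of this length in the table, 2.98% held GTAAACA and 1.95% held GTCAACA. The E-box CACCTG occurred in 17.5% of all windows. It was read as CAGGTG in the OCLN window above, beginning 33 bases before the start, and it was also present once at the second OCLN start, once at the first of 4 TJP1 starts and at 4 places before the second CLDN7 start. The CLDN1, CLDN3 and CLDN4 windows held none of the 3 motifs. A match or a lack of one describes these letters only. CLDN3 and CLDN4 are neighbours on chromosome 7, 60726 bases apart, and are read from opposite strands, away from each other.

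Lapatinib in NT siRNA cells, the response of the line to the drug without FOXA1 knockdown, raised CLDN3, CLDN4, OCLN and TJP1 and lowered EPCAM and CLDN1, and CDH1 was called higher on a few counts. CDH1 passed the filter of 10 counts in 1 library only through the NT siRNA lapatinib libraries, where it is high, so it is left out of the counts. Of the other 8 members that passed, 4 rose and 2 fell at an adjusted p under 0.05, where 59.7% of all 13713 genes tested were called, 30.5% higher and 29.2% lower. With a log2 change of 1 or more also required, CLDN1 was called, where 13.8% of all genes were. The groups did not overlap in normalized counts for 6 of the 8, as for 66.3% of all genes. The median log2 fold change was 0.43 over these 8 members and 0.03 over all genes. In bulk RNA a change in the share of cells that express a gene and a change in RNA per cell cannot be told apart.

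CLDN4 encodes a sealing claudin, and had 12239, 13235 and 12018 normalized counts in NT siRNA DMSO and 20157, 23326 and 22182 in NT siRNA lapatinib. All 3 treated libraries lay above all 3 controls, and the log2 fold change was 0.83 ± 0.07 (SE, adjusted p = 1.99e-05). CLDN3, its neighbour and also a sealing claudin, went from 1591, 2247 and 1422 to 2899, 3840 and 3039, a log2 fold change of 0.91 ± 0.18 (adjusted p = 0.00219), again without overlap and with replicate 2 the highest in both groups. OCLN, which encodes occludin, went from 2181, 2198 and 2050 to 3827, 4362 and 3808. Its log2 fold change of 0.92 ± 0.07 (adjusted p = 1.33e-05) was near that of CLDN3 with a smaller error, but partial copies of OCLN are known near the gene, and reads shared with them were not measured. TJP1, the ZO-1 scaffold, rose less, from 3725, 3555 and 3744 to 4556, 4411 and 4387, with a log2 fold change of 0.30 ± 0.05 (adjusted p = 0.000724) and no overlap. CLDN7 had 6028, 6553 and 6033 in DMSO and 6019, 6949 and 6007 in lapatinib. These groups overlapped throughout, and the log2 fold change was 0.05 ± 0.07 (adjusted p = 0.574).

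EPCAM fell by 0.63 ± 0.05 on the log2 scale (adjusted p = 1.9e-05), from 8039, 7332 and 8068 normalized counts to 4979, 5040 and 4858, which is 35.6% less by the fold change. CLDN1, a claudin of the epidermal barrier, fell from 89.6, 63.5 and 93.9 to 42.8, 34.8 and 33.9, a log2 fold change of -1.13 ± 0.22 (adjusted p = 0.00225). Both genes had every treated library under every control, EPCAM at a high level and CLDN1 at a low one. CLDN8, a claudin known from kidney tubules, had 11.8, 4.96 and 11.5 normalized counts without the drug and 16.6, 7.95 and 17.4 with it. Its groups overlapped, and the log2 fold change was 0.57 ± 0.45 (adjusted p = 0.303). For CDH1 the log2 fold change of 1.52 ± 0.52 (adjusted p = 0.0342) rests on the few counts given above, in which 8 of a control library exceeded 7 of a treated one. DESeq2 did not call CDH1 (adjusted p = 0.0883), and the call was lost without NT siRNA DMSO replicate 2 (adjusted p = 0.0696) or 3 (0.108), without NT siRNA lapatinib replicate 2 (0.111) or 3 (0.0797), and without replicate 2 of every group (0.124).

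**Figure D3:**
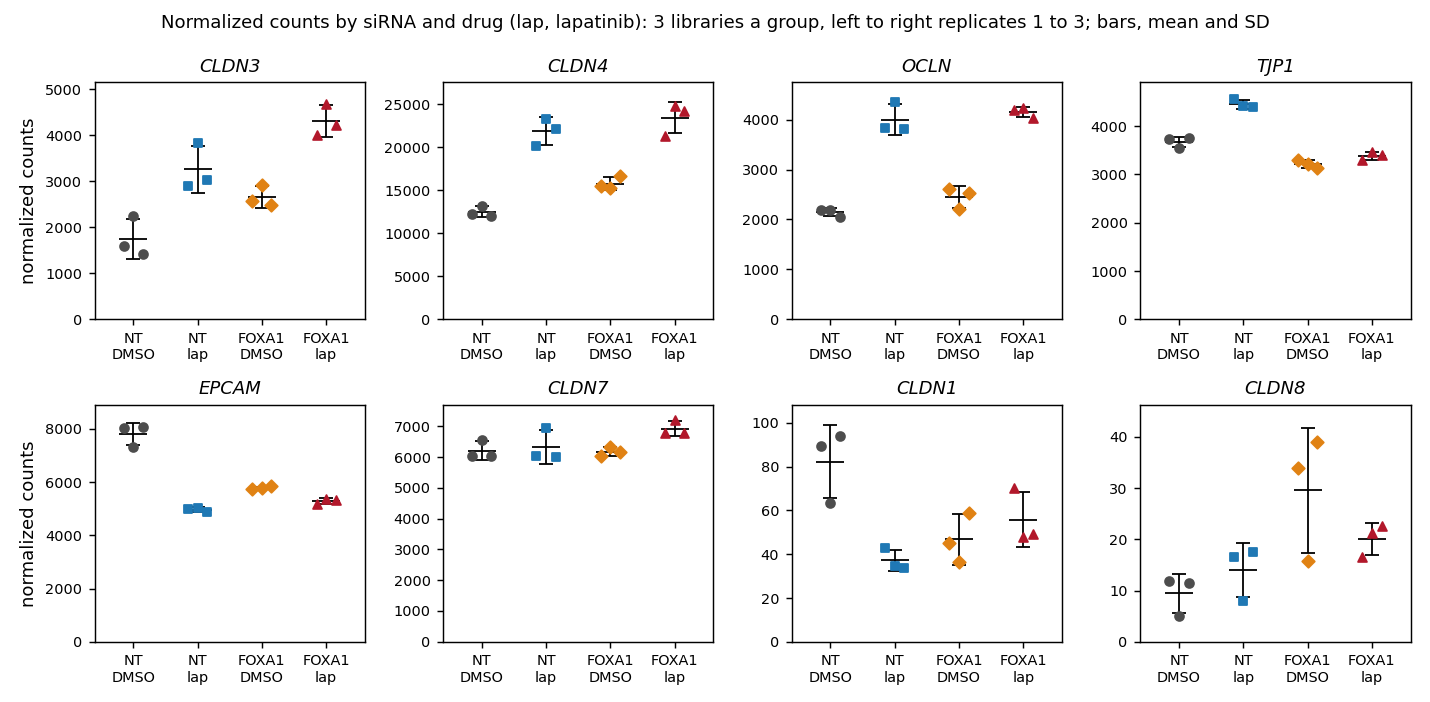
Normalized counts (vertical axes from 0) of 8 members in each library, grouped by siRNA and drug, with the mean and SD of 3 replicates as bars. CLDN3, CLDN4 and OCLN are higher in lapatinib under both siRNAs, and EPCAM is highest in the NT siRNA DMSO libraries at 7332 to 8068.

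FOXA1 siRNA in DMSO, which compares the FOXA1 pool with the NT pool without drug, raised CLDN3, CLDN4, CLDN8 and OCLN and lowered EPCAM, CLDN1 and TJP1. As no other siRNA against FOXA1 was used, loss of FOXA1 and other effects of the pool cannot be told apart. Of the 8 members that passed the filter, 4 rose and 3 fell, where 43.2% of 13694 genes were called, 21.9% higher and 21.3% lower, with a median log2 fold change of 0.11 over the 8 members and -0.01 over all genes. Only CLDN8 was called with a log2 fold change of at least 1, where 6.84% of all genes were, and 7 of the 8 members had groups that did not overlap, as did 53.7% of all genes. The comparison shares its NT siRNA DMSO libraries with the one before. The summed TPM of 4 basal or myoepithelial markers was 1.24 to 2.15 in NT siRNA DMSO and 3.81 to 5.91 in FOXA1 siRNA DMSO, most of it ACTA2, and its part in these results was not tested.

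CLDN3 had 2572, 2928 and 2487 normalized counts with FOXA1 siRNA, all above the 3 NT siRNA values given above, and its log2 fold change was 0.61 ± 0.16 (adjusted p = 0.0171). CLDN4 had 15493, 15243 and 16631, also without overlap, a log2 fold change of 0.35 ± 0.05 (adjusted p = 0.00158). OCLN, at 2611, 2208 and 2526, lay just above its NT siRNA values of 2050 to 2198, with a log2 fold change of 0.20 ± 0.07 (adjusted p = 0.0449). The largest fold among the members was at a low level. CLDN8 had 34.0, 15.8 and 39.0 normalized counts against 4.96 to 11.8 with NT siRNA, a log2 fold change of 1.65 ± 0.44 (adjusted p = 0.0188).

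EPCAM fell from 7332 to 8068 normalized counts to 5748, 5760 and 5832, a log2 fold change of -0.42 ± 0.04 (adjusted p = 0.000225), with a tight FOXA1 siRNA group well under the controls. CLDN1 fell to 45.0, 36.3 and 59.0, a log2 fold change of -0.80 ± 0.24 (adjusted p = 0.026), and TJP1 fell to 3300, 3212 and 3135, a log2 fold change of -0.18 ± 0.04 (adjusted p = 0.00941), the direction opposite to its change with lapatinib. CLDN7, at 6040, 6334 and 6164, overlapped its controls (log2 fold change 0.01 ± 0.05, adjusted p = 0.923). CDH1 and CDH3 did not pass the filter. Calls near the threshold depended on single libraries: CLDN1 was not called without NT siRNA DMSO replicate 1 (adjusted p = 0.0823) or 3 (0.0887) or FOXA1 siRNA DMSO replicate 1 (0.0775) or 2 (0.0678), CLDN8 without FOXA1 siRNA DMSO replicate 1 (0.0599) or 3 (0.0704), and CLDN3 without NT siRNA DMSO replicate 1 (0.0636). OCLN was not called without replicate 1 (0.0963) or 3 (0.143) of NT siRNA DMSO, without replicate 1 (0.157) or 3 (0.138) of FOXA1 siRNA DMSO, or with no filter on low counts (0.0585).

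FOXA1 siRNA in lapatinib, which compares the same pools in drug-treated cells, gave fewer calls among the members. CDH1 again passed the filter only through NT siRNA lapatinib, where it is high, and is left out of the counts. Of the other 8, 1 rose and 1 fell, where 44.9% of 13727 genes were called, 22.7% higher and 22.2% lower. Blocked on the replicate number, the fit called 5 of the 8 higher and 1 lower, with 61.7% of all genes called. None of the 8 was called with a log2 fold change of at least 1, where 8.41% of all genes were. Groups did not overlap for 4 of the 8, as for 55.5% of all genes. In this comparison too the basal or myoepithelial markers were apart, at 1.23 to 2.89 TPM with NT siRNA and 3.15 to 5.06 with FOXA1 siRNA, as were the endothelial ones, at 3.78 to 6.55 and 7.1 to 12.1, and their part was not tested.

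TJP1 was lowered, with 3303, 3466 and 3391 normalized counts against 4556, 4411 and 4387 with NT siRNA, a log2 fold change of -0.40 ± 0.04 (adjusted p = 0.000227). CLDN3 rose again, with 4009, 4693 and 4230 against 2899, 3840 and 3039, a log2 fold change of 0.40 ± 0.11 (adjusted p = 0.0165), and both genes had no overlap between groups. The CLDN3 call was lost without NT siRNA lapatinib replicate 1 (adjusted p = 0.0586) or 3 (0.0616) or FOXA1 siRNA lapatinib replicate 2 (0.0552), so that no member counted as higher in these 3 fits. CDH1 was called lower, at a log2 fold change of -1.56 ± 0.45 (adjusted p = 0.0224), on its 7, 19 and 14 counts against 6, 5 and 3. The CDH1 call was not made by DESeq2 (adjusted p = 0.0721) and was lost without replicate 2 (0.0698) or 3 (0.0606) of NT siRNA lapatinib, replicate 2 (0.0532) or 3 (0.0779) of FOXA1 siRNA lapatinib, or replicate 2 of every group (0.097).

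A further 4 members that were not called came to be called with the block. EPCAM, lower by 25.3% with FOXA1 siRNA in DMSO, had 5166, 5353 and 5335 normalized counts against 4979, 5040 and 4858 in lapatinib, higher without overlap, a log2 fold change of 0.08 ± 0.04 (adjusted p = 0.14, 0.0435 with the block). CLDN4 had 21356, 24807 and 24263 against 20157, 23326 and 22182, higher in each replicate number but overlapping between groups, with a log2 fold change of 0.09 ± 0.07 (adjusted p = 0.317, 0.0146 with the block). CLDN7, at 6775, 7194 and 6794, had a log2 fold change of 0.12 ± 0.06 (adjusted p = 0.154, 0.00791 with the block, 0.0132 without NT siRNA lapatinib replicate 2 and 0.0104 without replicate 2 of every group). CLDN1, at 70.2, 48.0 and 49.1 against 42.8, 34.8 and 33.9, had no overlap and a log2 fold change of 0.58 ± 0.22 (adjusted p = 0.0654, 0.0184 with the block). OCLN, at 4188, 4224 and 4042, and CLDN8, at 16.5, 21.1 and 22.5, overlapped their controls, with log2 fold changes of 0.05 ± 0.06 (adjusted p = 0.561) and 0.52 ± 0.35 (adjusted p = 0.255).

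Lapatinib in FOXA1 siRNA cells raised 4 tight junction genes and lowered EPCAM slightly. Of the 8 members that passed the filter, 4 rose and 1 fell, where 58.2% of 13745 genes were called, 29.0% higher and 29.1% lower. The comparison uses the FOXA1 siRNA values already given, with no library in common with the lapatinib comparison in NT siRNA cells. OCLN rose by a log2 fold change of 0.77 ± 0.07 (adjusted p = 3.46e-05), CLDN3 by 0.70 ± 0.08 (adjusted p = 0.000123), CLDN4 by 0.58 ± 0.06 (adjusted p = 0.000116) and CLDN7 by 0.17 ± 0.04 (adjusted p = 0.00814), each with 3 treated libraries above 3 controls. With EPCAM and TJP1, 6 of the 8 members had groups that did not overlap, as did 65.3% of all genes. None was called with a log2 fold change of at least 1, where 10.1% of all genes were. EPCAM fell by 0.12 ± 0.04 (adjusted p = 0.0235), a call lost without FOXA1 siRNA DMSO replicate 1 (0.0608) or 3 (0.0812) or FOXA1 siRNA lapatinib replicate 1 (0.0976) or 3 (0.0671). TJP1 (log2 fold change 0.08 ± 0.04, adjusted p = 0.133) and CLDN1 (0.26 ± 0.24, adjusted p = 0.385) were not called. CLDN8, at -0.55 ± 0.35 (adjusted p = 0.216), was called lower without FOXA1 siRNA DMSO replicate 2 (-0.85, adjusted p = 0.0218).

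The difference between the lapatinib responses under both siRNAs was tested as an interaction over all 12 samples, with positive values where the log2 change was higher with FOXA1 siRNA. CDH1 passed the filter here too only through NT siRNA lapatinib, where it is high, and is left out of the count. The difference was called for EPCAM and CLDN1, 2 of the other 8 members, both positive. Of 14012 genes tested 7.19% were called, 3.99% positive and 3.20% negative. CLDN1 alone was called with a difference of at least 1, where 1.03% of all genes were. For EPCAM the responses of -0.63 and -0.12 differed by 0.53 ± 0.06 (adjusted p = 0.000656), and this call was kept in all 12 fits that left out 1 library. For CLDN1 the responses of -1.13 and 0.26 differed by 1.41 ± 0.33 (adjusted p = 0.0257, 0.00313 with the block). The CLDN1 call was lost without NT siRNA DMSO replicate 1 (adjusted p = 0.0652) or 3 (0.0662), NT siRNA lapatinib replicate 3 (0.0683), FOXA1 siRNA DMSO replicate 1 (0.0614) or 2 (0.0506) or FOXA1 siRNA lapatinib replicate 1 (0.0685).

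In the other direction edgeR called 0 members, 2 at an unadjusted p under 0.05 and DESeq2 1. TJP1 had a difference of -0.20 ± 0.06 (adjusted p = 0.0535, 0.0143 with the block, 0.0155 with DESeq2) and CLDN4 of -0.24 ± 0.10 (adjusted p = 0.168, 0.0302 with the block). Those of CLDN8 (-1.10 ± 0.60, adjusted p = 0.312), CDH1 (-0.82 ± 0.83, 0.642), CLDN3 (-0.20 ± 0.21, 0.659), OCLN (-0.14 ± 0.10) and CLDN7 (0.14 ± 0.08) were not called. Without replicate 2 in every group, 4 members were negative: TJP1 (adjusted p = 0.0385), CLDN4 (0.0397), CLDN3 (0.0351) and CLDN8 (0.0452). Over all genes 7.19% were called by edgeR, 10.4% by DESeq2, 20.4% with the block and 18.2% without replicate 2 in every group. At an unadjusted p under 0.05, 1380 of 14012 genes were negative.

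**Figure D4:**
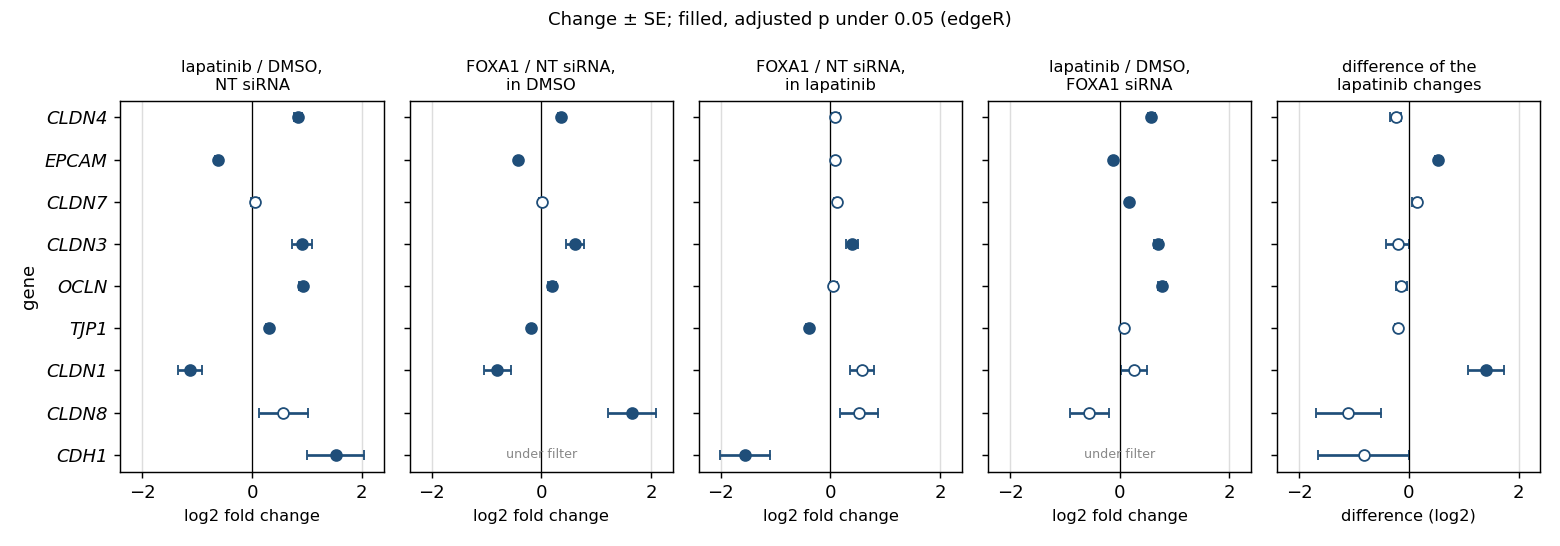
Log2 fold change with its SE (horizontal axes) of 9 members in the 4 comparisons and, at the right, the difference between the lapatinib changes, FOXA1 siRNA minus NT siRNA. Filled points have an adjusted p under 0.05, and EPCAM and CLDN1 are filled in the last panel at 0.53 and 1.41. CDH1 is filled for lapatinib in NT siRNA cells and for FOXA1 siRNA in lapatinib. It rests there on few counts, passed the filter only through NT siRNA lapatinib, where it is high, and was not called by DESeq2.

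The other genes of the junctions, from lists grouped by role, were read in the same fits. Lapatinib in NT siRNA cells raised 13 and lowered 1 of 15 further tight junction proteins, where 30.5% of all genes rose and 29.2% fell, with a median log2 fold change of 0.45 against 0.03 over all genes. The largest rises were those of PARD6B, a polarity protein (1.20 ± 0.07, adjusted p = 4.68e-06), and MAGI1, a junction scaffold (99.5% higher, adjusted p = 1.16e-05), and LSR, of tricellular junctions, fell (-0.35 ± 0.05, adjusted p = 0.00051). In FOXA1 siRNA cells the counts were again 13 and 1, against 29.0% and 29.1% of all genes, with a median of 0.49. FOXA1 siRNA in DMSO raised 2 and lowered 3 of the 15, where 43.2% of all genes were called, and with the block 5 and 4, where 60.5% were. Of these CGN, which encodes cingulin, fell most, at -0.78 ± 0.06 (adjusted p = 4.58e-05).

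Of 9 adherens junction genes lapatinib raised 5 and lowered 2 in NT siRNA cells, against 30.5% and 29.2% of all genes. With the block it raised 6 and lowered 2, where 67.3% of all genes were called. PVRL4, which encodes nectin-4, rose by 1.10 ± 0.06 (adjusted p = 4.41e-06) and JUP by 0.63 ± 0.06 (adjusted p = 4.15e-05), and PVRL1, which encodes nectin-1, fell by 0.58 ± 0.05 (adjusted p = 4.36e-05). CTNNB1 moved mainly with the siRNA and had 3673, 4378 and 3448 normalized counts in NT siRNA DMSO and 9752, 9483 and 9547 in FOXA1 siRNA DMSO, a log2 fold change of 1.34 ± 0.09 (adjusted p = 2.47e-05), and one of 1.16 ± 0.07 (adjusted p = 1.21e-05) in lapatinib, while lapatinib in NT siRNA cells gave 0.21 ± 0.11 (adjusted p = 0.114, 0.0025 with the block). CTNNA1 also rose with FOXA1 siRNA, by 0.50 ± 0.03 (adjusted p = 3.23e-05) in DMSO.

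Desmosome genes moved both ways. Lapatinib in NT siRNA cells raised 5 and lowered 2 of 8 tested, against 30.5% and 29.2% of all genes. With the block it raised 6 and lowered 2, where 67.3% of all genes were called. Without the block DSC2, a desmosomal cadherin, was at 1.36 ± 0.09 (adjusted p = 9.45e-06) and PKP2, a plakophilin, at -0.72 ± 0.09 (adjusted p = 0.000182). Of the 6 tested partners and kin of EPCAM, 5 rose, where 30.5% of all genes did, led by SPINT1, an inhibitor of the matriptase that cleaves EPCAM, at 1.16 ± 0.07 (adjusted p = 5.02e-06). All 10 factors of epithelial state rose, against the same share, from 0.27 to 1.58, with KLF5 (1.58 ± 0.07, adjusted p = 2.64e-06) and EHF (1.49 ± 0.10, adjusted p = 1.06e-05) the highest. With FOXA1 siRNA in DMSO 4 of these 10 rose and 4 fell, where 21.9% and 21.3% of all genes did. With the block 4 rose and 6 fell, where 60.5% of all genes were called. Without the block ESRP1, a splicing regulator of epithelial isoforms, rose by 1.14 ± 0.07 (adjusted p = 2.01e-05), and GRHL3, of the grainyhead family, fell by 1.55 ± 0.15 (adjusted p = 0.000166).

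SNAI1, the one CDH1 repressor above the filter, had 127.1, 146.7 and 116.9 normalized counts in NT siRNA DMSO and 32.1, 34.8 and 34.9 in NT siRNA lapatinib, with no overlap and a log2 fold change of -1.91 ± 0.17 (adjusted p = 3.56e-05). It also fell in FOXA1 siRNA cells (-1.96 ± 0.15, adjusted p = 2.32e-05) and rose with FOXA1 siRNA in DMSO (0.60 ± 0.14, adjusted p = 0.00988). CDH5 fell with lapatinib in NT siRNA cells (-0.97 ± 0.24, adjusted p = 0.00816) and was higher with FOXA1 siRNA in lapatinib (1.08 ± 0.25, adjusted p = 0.00946). CDH13 was called lower with FOXA1 siRNA in DMSO, from 26 to 36 counts to 5 to 8 (-2.36 ± 0.31, adjusted p = 0.000693). Like CDH1 in other comparisons, CDH13 passed the filter here only through the group where it is high, NT siRNA DMSO. The call thus rests on a gene selected by its control libraries and on few counts.

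**Figure D5:**
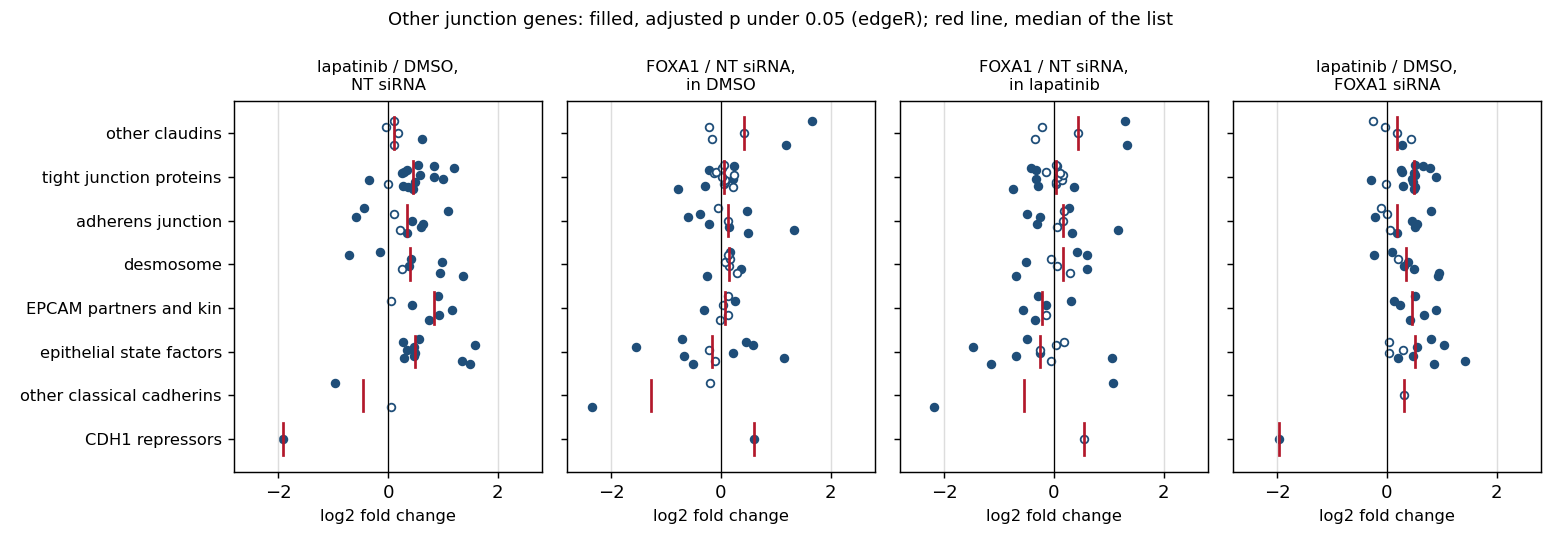
Log2 fold change (horizontal axes) of each further junction gene that passed the filter in the 4 comparisons, by list, with filled points at an adjusted p under 0.05 and a red line at the median of the list. With lapatinib in NT siRNA cells all 10 epithelial state factors and 13 of 15 tight junction proteins are filled to the right of 0.

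Within the claudin family CLDN3, CLDN4 and CLDN7 together held 96.3% of the summed TPM of 22 claudins in NT siRNA DMSO, 97.4% in NT siRNA lapatinib, 95.0% in FOXA1 siRNA DMSO and 95.7% in FOXA1 siRNA lapatinib. The share of CLDN7 fell from 32.9% ± 0.743 (SD, n = 3) to 22.4% ± 0.742 with lapatinib in NT siRNA cells while its own counts overlapped, and that of CLDN4 went from 52.4% ± 1.13 to 61.2% ± 1.57. CLDN12, a claudin that lacks the usual ZO-1 binding end, took 1.85% ± 0.0675 in NT siRNA DMSO and 3.46% ± 0.28 in FOXA1 siRNA DMSO, with a log2 fold change of 1.18 ± 0.07 (adjusted p = 2e-05) there. Of 16 further claudins listed, 11 stayed under 10 counts in every library.

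The genes whose log2 CPM followed a member most closely over the 12 samples were, by Pearson's r among 10812 genes, OAS1 for CLDN3 (0.989), ZNF862 for CLDN4 (0.991), RB1CC1 for OCLN (0.991), CXCL16 for CLDN7 (0.984), C17orf58 for TJP1 (0.985) and DKFZp686O24166, followed by PFKM (0.977), for EPCAM (0.984). These values describe 4 groups of 3 libraries that share their treatments and replicate numbers, and no test was made of them. The replicate numbers also showed within single members: CLDN3 and CLDN7 were highest in replicate 2 in 4 of 4 groups, and CLDN1 and CLDN8 were lowest in replicate 2 in 3 of 4.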

How the data were processed

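RNAseq of 12 SKBR-3 samples was analysed, grouped by the labels. The authors deposited an expected count per gene (an estimated count, whole for 87.46% to 88.09% of values), a TPM, an FPKM and an upper-quartile normalized signal for each library, not pooled. The submitters' processing notes name RSEM, DESeq2 1.12.3 and R 3.2.2, while the methods name STAR, Salmon and hg38. The labels name 2 library kits and a siRNA exposure of 48 h before the drug, where the methods give a shorter one. Strand use in counting is not given in the sources used here, so values of overlapping genes are uncertain. The deposited FPKM and signal were not used.

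The deposited counts were rounded and tested with edgeR 4.0.16 (R 4.3.3, TMM normalization, quasi-likelihood test) after keeping genes that reached 10 counts in 1 or more samples of the fit, each pair of groups on its own 6 samples and the interaction on all 12, with Benjamini-Hochberg adjustment over all genes. SE is the log2 fold change divided by the square root of F. Fits were tested on simulated counts with independent replicates, the same spread for all genes and changes only in genes well above the filter. Low counts, small changes and the replicate structure of these libraries were not covered. The deposited TPM served to compare levels between genes and for the marker sums and claudin shares of the groups, without a test. Its total per library ran from 896833 to 939340. DESeq2 1.42.0 and other normalizations, filters, thresholds, models and left-out libraries were tried as alternatives. Python 3.11.15, pandas 2.3.3 and matplotlib 3.10.9 made the tables and plots. Promoter windows and positions are RefSeq's, GRCh38.p14. The files hold no coordinates.

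The members and lists were chosen with earlier results of these data known. Of each list at most 2 genes per direction and comparison were named, those with the largest fold change among called genes with at least 100 normalized counts, besides the catenins and the 2 lists of 6 genes, which were open in full, CLDN12 and named neighbours. Deviations from the group mean correlated across groups between samples with one replicate number (mean r = 0.36, 0.195 to 0.617 over 18 pairs and 11512 genes). For different numbers the mean was -0.171 (-0.435 to 0.234), so the ranges overlapped. Centring on the mean of 3 replicates itself lowers the values for different numbers. Between replicates 1 and 3 these were -0.032 to 0.234. Samples that were both replicate 2 had 0.339 to 0.617, both replicate 1 had 0.195 to 0.434 and both replicate 3 had 0.248 to 0.392. The pairing was thus strongest in replicate 2 but also showed in replicates 1 and 3, with some overlap. The main fits leave it out. Blocked values are given where they change the call of a member or a count that the text gives.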

Additional observations from a re-analysis of the deposited data

Results flagged for a closer look

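The response to lapatinib differed between FOXA1 siRNA and NT siRNA, by the interaction test (edgeR, log2, FOXA1 siRNA minus NT siRNA), for the members CLDN1 (1.41, adjusted p = 0.0257) and EPCAM (0.53, adjusted p = 0.000656). EPCAM fell in 3 of 3 replicate numbers under both siRNAs, by less with FOXA1 siRNA. CLDN1 fell in 3 of 3 with NT siRNA and was higher in 2 of 3 with FOXA1 siRNA.

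Among the listed junction genes the difference was positive for CDH5 (1.30, adjusted p = 0.0369), PKP2 (0.49, adjusted p = 0.0252), PVRL1 (0.38, adjusted p = 0.0143), VCL, which encodes vinculin (0.34, adjusted p = 0.0468), and PKP3 (0.26, adjusted p = 0.0108). It was negative for EHF (-0.62, adjusted p = 0.0215), the desmosomal gene PERP (-0.57, adjusted p = 0.0306), KLF5 (-0.53, adjusted p = 0.0153), MAGI1 (-0.53, adjusted p = 0.00527) and PARD6B (-0.41, adjusted p = 0.0443). Of 6 partners and kin of EPCAM edgeR called 0 (4 negative at an unadjusted p under 0.05), but 5 were negative with the replicate block and 3 with DESeq2. Calls over all genes rose too, from 7.19% by edgeR to 20.4% with the block and 10.4% with DESeq2. At an unadjusted p under 0.05, 1380 of 14012 genes were negative. MAGI1, PVRL1, PKP3 and KLF5 kept the call in all 12 fits that left out 1 library. CDH5 kept it in 2 of 12 (highest adjusted p 0.0933), PARD6B in 3 (0.111), VCL in 3 (0.113), PERP in 5 (0.0835), PKP2 in 6 (0.0702) and EHF in 8 (0.0585). CDH5 is also the marker that carries the endothelial sum given with the samples, and the part of other cells in its value was not tested.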

How the results depend on the processing

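Counts of called members are given here with CDH1, although it passed the filter only through NT siRNA lapatinib, where it is high. With CDH1 they are 5 higher and 2 lower with lapatinib in NT siRNA cells, and 4 and 2 without it. With FOXA1 siRNA in lapatinib they are 1 and 2 with CDH1, and 1 and 1 without it. The counts with CDH1 moved as follows. With a log2 fold change of at least 1 required, 1 member, CDH1, was higher and 1 lower with lapatinib in NT siRNA cells. FOXA1 siRNA in DMSO then gave 1 and 0. FOXA1 siRNA in lapatinib gave 0 and 1, the 1 again being CDH1. Lapatinib in FOXA1 siRNA cells gave 0 and 0, and the interaction 1 positive. At an adjusted p under 0.01, 1 was higher with FOXA1 siRNA in DMSO, 0 higher and 1 lower with FOXA1 siRNA in lapatinib, 0 lower with lapatinib in FOXA1 siRNA cells and 1 positive in the interaction. The share of all genes at that threshold was not counted. Nor was it for upper-quartile scaling, for a filter of 10 counts in every sample or for the fits with 1 library left out. The moves of the members under these settings therefore cannot be set against all genes. For FOXA1 siRNA in lapatinib the replicate block gave 5 higher, and DESeq2 and a filter of 10 counts in every sample each gave 1 lower. For the interaction 1 member was negative with upper-quartile scaling, DESeq2 or that filter and 2 with the replicate block. Over all genes the block called 61.7% with FOXA1 siRNA in lapatinib and 20.4% in the interaction. DESeq2 called 43.0% and 10.4% of all genes there. Without replicate 2 in every group, an alternative chosen after seeing the data, FOXA1 siRNA in lapatinib gave 2 higher and 1 lower, lapatinib in FOXA1 siRNA cells 2 lower and the interaction 4 negative. In these 3 fits 51.2%, 60.7% and 18.2% of all genes were called. The block changed no call of a member other than those named in the report. With each library left out, lapatinib in NT siRNA cells gave 4 to 5 higher and 2 lower, FOXA1 siRNA in DMSO 2 to 4 higher and 2 to 3 lower, FOXA1 siRNA in lapatinib 0 to 2 higher and 1 to 2 lower, lapatinib in FOXA1 siRNA cells 4 higher and 0 to 2 lower, and the interaction 1 to 2 positive and 0 negative.

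Of single members CLDN7, not called in either comparison, changed sign: to -0.02 without NT siRNA lapatinib replicate 2 in the lapatinib comparison of NT siRNA cells (-0.02 to 0.09 with each library left out) and, with FOXA1 siRNA in DMSO, to -0.002 with no filter, -0.01 with all 12 samples in one model and -0.02 in 3 fits without 1 library (-0.02 to 0.06). The cause was not tested. Scaling moved the median of all genes by at most 0.019. Depth limits CDH1, CDH3 and CLDN8, which had at most 41 counts in a library.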
